A study of Mus musculus with 6 samples.

Results

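FOXO transcription factors and genes of the response that insulin holds down were followed in the retina of newborn mice with and without Meg2. The set held 10 genes, chosen by name with earlier results of these data known. It comprised the factor genes Foxo1, Foxo3 and Foxo4 and the targets Cdkn1b, Klf15, Txnip, Irs1, Irs2, Pik3ip1 and Sesn1. They are 10 of 19938 genes that a transcript cluster of the array reads on its own, a transcript cluster being the group of probes that covers 1 transcript. Each gene is shown by its brightest such cluster. Of the 10 genes, Cdkn1b and Irs1 had a second cluster and the rest had 1.

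Both genotypes were on the C57BL/6NTac background and were taken at postnatal day 0. The knockout animals lacked Meg2, the protein tyrosine phosphatase encoded by Ptpn9, and the controls were wild type, with 3 arrays of each genotype. How the allele was built, and whether any cells escape it, is not stated in the labels. Per the labels, each array carried the pooled retinae of 1 animal, with which the sex-linked signal of both replicate 2 arrays, given below, conflicts. Values are normalised log2 signals, and differences are given as knockout minus wild type on that scale.

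FOXO proteins are forkhead transcription factors that switch on genes of fasting, cell cycle arrest and stress resistance. Insulin and insulin-like growth factors act through IRS adaptor proteins, PI3 kinase and AKT, which phosphorylates FOXO proteins so that 14-3-3 proteins keep them out of the nucleus. The output of FOXO proteins is therefore set mostly by their location, which an RNA measurement does not read. In the retina FOXO proteins are known from work on photoreceptor and ganglion cell survival, and in liver the phosphatase Meg2 has been described as acting against insulin signalling.

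Stretches before the start sites of 4 genes are shown because each holds at least 1 of the motifs searched, which in Klf15 was the E-box alone. Capitals mark 4 motifs, which were searched on both strands. The first is the FOXO element, GTAAACA. The next is the core of the insulin response element, CAAAACA, which both Irs genes carry on the opposite strand. The E-box searched was CACGTG. The last is the paired carbohydrate response element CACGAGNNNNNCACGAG, in the form known from Txnip. Sequences are from RefSeq, build GRCm38.p6, and read along the gene's strand.
Txnip, chr3:96557816-96557908, + strand: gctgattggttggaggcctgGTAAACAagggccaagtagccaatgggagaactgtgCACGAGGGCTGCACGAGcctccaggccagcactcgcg
Irs1, chr1:82291524-82291574, - strand: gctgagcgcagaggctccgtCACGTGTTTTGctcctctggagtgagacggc
Irs2, chr8:11008940-11008993, - strand: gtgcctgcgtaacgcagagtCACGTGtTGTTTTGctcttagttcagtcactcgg
Klf15, chr6:90462328-90462429, + strand: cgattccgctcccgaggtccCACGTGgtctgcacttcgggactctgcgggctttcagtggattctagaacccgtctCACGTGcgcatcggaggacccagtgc

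Irs1 and Irs2, the genes of the insulin receptor substrates, each held an E-box followed by the insulin response core. In Irs1 the E-box began 115 bases before the start site and the core 111 bases before it, so the motifs overlap in the letters TG. In Irs2 they began 44 and 37 bases before the start site. Irs1 had a further core 32 bases before its start site. Txnip held the FOXO element 121 bases and the carbohydrate response element 85 bases before its start site. Klf15 held 3 E-boxes, beginning 228, 172 and 3 bases before the start site, the last of them spanning it. The gene is annotated from chr6:90461043, so the Klf15 start site used lies inside the annotated gene and not at its first base. Sesn1 held a FOXO element 23 bases after one of its start sites.

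Of the 10 genes, 9 had a window of 300 bases (250 before to 50 after the start site) in the table used, and 5 of these held at least 1 of the 4 motifs. Over all 32817 windows, the FOXO element was found in 3.65%, the insulin response core in 6.29% and the E-box in 7.15%. By gene, the FOXO element was found for 2 of the 9 and for 4.05% of 26994 genes. The insulin response core was found for 2 and 7.21%, and the E-box for 3 and 8.09%. The share of genes with at least 1 of the 4 motifs was not computed. The carbohydrate response element had 1 match, in Txnip, from which its form was taken, so no background share can be given. A match describes letters in a short window and does not show that a factor binds there.

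Signal of tissue markers and of the targeted gene is given first. Markers of retinal progenitors, photoreceptor precursors and ganglion cells had median signals at the 92.9th, 87.7th and 79.6th percentile of the 23410 clusters tested. These percentiles rank the brightness of different probes and not amounts of RNA, so they describe the arrays and do not test the tissue label. Ptpn9 read 9.31, 9.58 and 9.28 in the knockout and 10.05, 9.93 and 9.94 in the wild type, in the order of replicates 1, 2 and 3, which is the order of all values below. The labels do not say which part of the gene was deleted, so probes outside it would not test the label. Arrays of the same replicate number deviated together from their group means (correlations 0.455 to 0.485), so differences within a number are given beside the pooled ones. The X-linked transcript Xist read 12.6, 12.5 and 6.26 in the knockout and 12.7, 12.5 and 6.52 in the wild type, so the Xist pattern was shared within each number, and both replicate 2 arrays also carried Y-linked signal (Eif2s3y at 7.66 and 7.76, between 5.08 and 5.49 in replicate 1 and 10.03 and 9.39 in replicate 3). Xist and Y-linked signal together are not what RNA of 1 animal of either sex gives, so what a replicate 2 array holds is uncertain, and n = 3 rests on the labels. In limma 0 of 23410 clusters (0.0%) passed an adjusted p of 0.05, with 803 (3.43%) at an unadjusted p under 0.05, and 1 cluster (0.00427%) passed with the replicate number as a block.

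The comparison asks whether loss of Meg2 goes with a change in the FOXO factors or in the genes they drive. All 10 genes had a mean difference above 0, from 0.0049 for Sesn1 to 0.24 for Irs2, where 50.7% of clusters tested lay above 0. The median difference was 0.13, against 0.0012 over all clusters tested. The 10 genes and the lists below were chosen with earlier results known, so shares over all clusters describe them and do not test them. None of the 10 passed correction over all clusters (limma, adjusted p = 0.9995 for each). At an unadjusted p under 0.05, 2 of the 10 were higher, Klf15 and Foxo4, where 1.69% of clusters were, and 0 were lower, where 1.74% were. Without both replicate 2 arrays or without knockout replicate 3, 0 of the 10 were higher at that level, and without knockout replicate 1 the count was 5. Over all 23410 clusters the counts in these fits, in either direction, were 706, 755 and 1298, against 803 with all arrays. Among the 10 the count was 1 without knockout replicate 2 or without wild-type replicate 1, where Klf15 stayed. It was also 1 without wild-type replicate 2, where Irs2 was the gene and both Klf15 and Foxo4 missed that level. Over all clusters the counts at that level in these fits, in either direction, were 1221, 718 and 636. With mean lens marker signal, itself higher in the knockout, as a covariate, Klf15 and Foxo4 missed that level, and Txnip reached it. In a fit with the replicate number as a block, 3 of the 10 were higher at an unadjusted p under 0.05, as Irs2 joined Klf15 and Foxo4, where 4.46% of clusters were, and 0 were lower, where 4.36% were. The lowest adjusted p of the 10 in that blocked fit was 0.514.

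The higher signal lay mainly on 2 of the 3 knockout arrays. Relative to each gene's mean over the 6 arrays, the median over the 10 genes was -0.081, 0.10 and 0.18 on the knockout arrays and -0.080, -0.034 and -0.071 on the wild-type arrays. The knockout array of replicate 1 thus stood with the wild type in these genes, although its Ptpn9 signal was as low as that of replicate 3. Within replicate 1, 5 of the 10 genes were higher in the knockout, with a median difference of 0.00076. Within replicate 2 the count was 10 of 10 and the median 0.14, and within replicate 3 it was 9 of 10 and 0.21. Over all clusters tested the shares higher in the knockout were 50.6%, 49.6% and 51.2% for the same numbers. Without the knockout replicate 3 array the pooled median was 0.068 with 9 genes above 0, and without the knockout replicate 1 array it was 0.19 with 10 above 0.

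**Figure D1:**
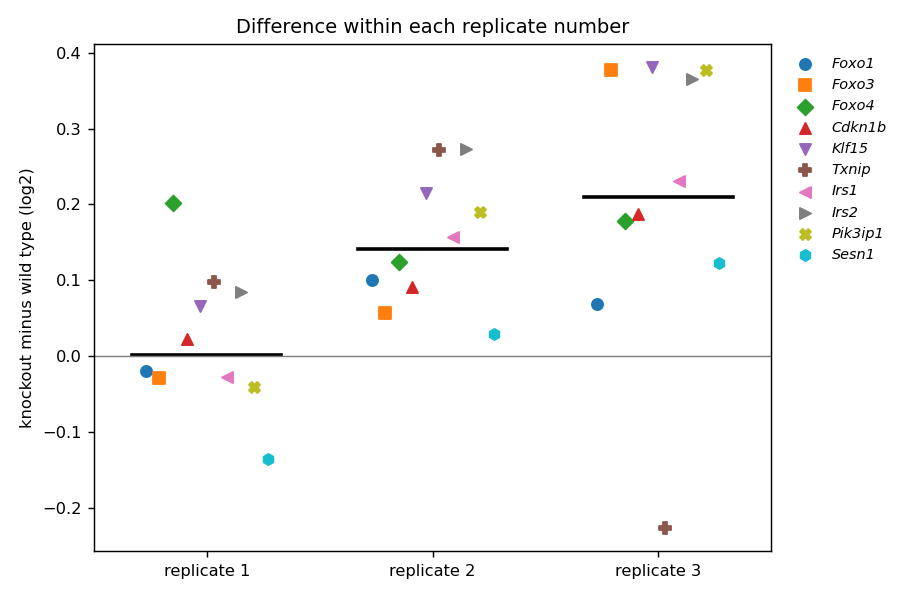
Knockout minus wild-type signal (log2, vertical axis) within each replicate number (horizontal axis), with 1 symbol per gene and a black line at the median over the 10 genes. The median lies at 0.00076 in replicate 1, 0.14 in replicate 2 and 0.21 in replicate 3, and Txnip is the 1 gene below 0 in replicate 3.

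The factor genes come first. Foxo1, which encodes the family member best known for control of glucose production, read 9.25, 9.52 and 9.40 in the knockout and 9.27, 9.42 and 9.33 in the wild type. The groups overlapped, and replicate 2 was highest in both genotypes. The Foxo1 difference was 0.050 (95% interval -0.13 to 0.23), and it was -0.014 without the knockout replicate 2 array. Signal of this cluster lay at the 62.3rd percentile of those tested.

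Foxo3 encodes the family member known for stress resistance and for holding stem cells quiescent. Its signal was 10.69, 10.75 and 10.94 in the knockout and 10.71, 10.69 and 10.56 in the wild type. Only the knockout array of replicate 3 stood clear of the rest, and the other 5 arrays lay between 10.56 and 10.75. The difference was 0.13 (95% interval -0.048 to 0.32; limma, unadjusted p = 0.129), and 0.061 without that array.

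Foxo4, the X-linked member of the family, read 9.12, 9.16 and 9.29 in the knockout and 8.92, 9.04 and 9.12 in the wild type. Every knockout array lay above every wild-type array, the closest pair being knockout replicate 1 at 9.125 and wild-type replicate 3 at 9.117. Non-overlap in this direction was found for 2 of the 10 genes and for 4.08% of clusters tested. The difference was 0.17 (SE 0.074), a 1.12-fold higher signal (limma, unadjusted p = 0.0496, adjusted p = 0.9995). Within replicates 1, 2 and 3 it was 0.20, 0.12 and 0.18, and the blocked SE was 0.046 (limma, unadjusted p = 0.00941, adjusted p = 0.514). With the lens marker signal as a covariate it was 0.12 (limma, unadjusted p = 0.29). Foxo4 signal was lowest in replicate 1 and highest in replicate 3 in both genotypes, while Xist was high in replicates 1 and 2. Foxo4 was the 1 gene of the 10 whose difference within replicate 1 exceeded 0.1.

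**Figure D2:**
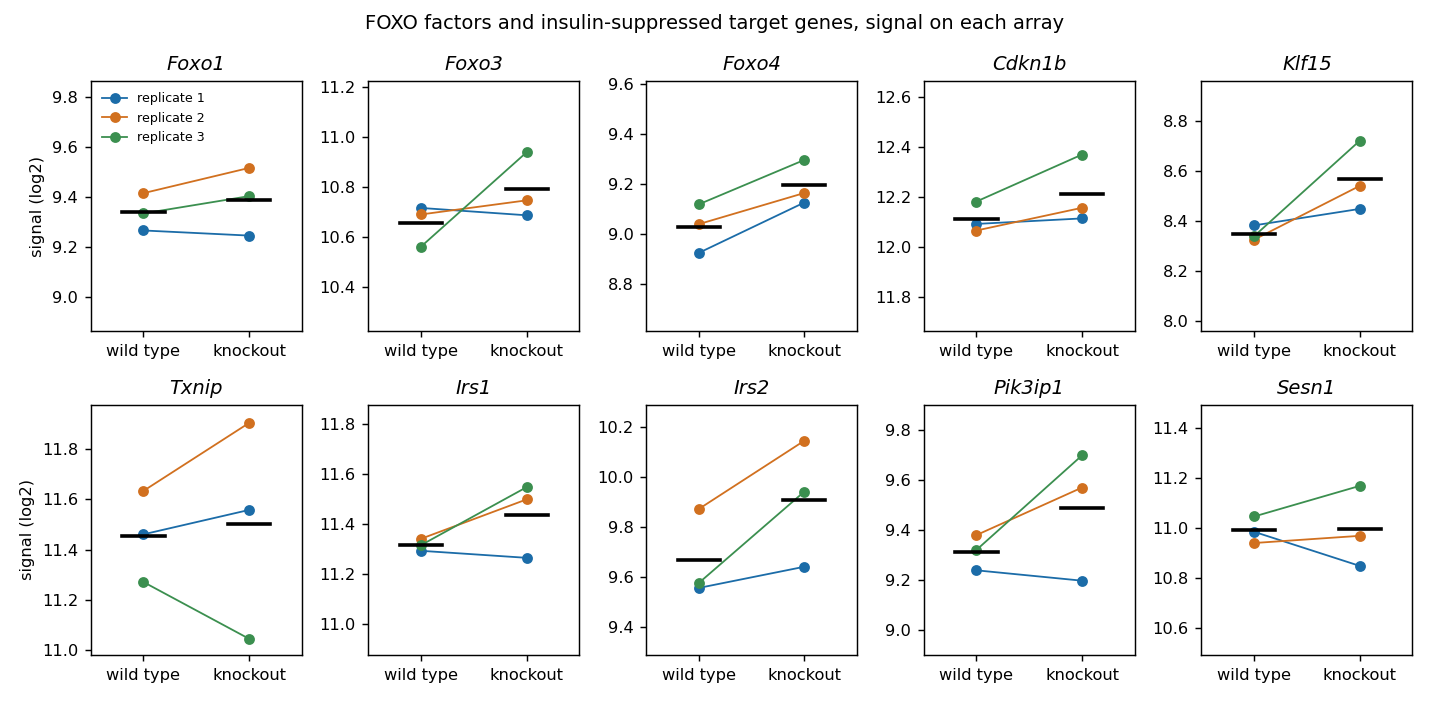
Signal (log2, vertical axes, each spanning 1 unit) on the wild-type and knockout arrays, with 1 panel per gene. Points are arrays, lines join arrays of the same replicate number and black bars are group means (n = 3). Foxo4 and Klf15 are the 2 genes whose knockout arrays all lie above the wild-type arrays. The means of the replicate numbers range most widely for Txnip, over 0.61. This range exceeds the difference between genotypes in every gene except Foxo3 and Klf15.

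Among the targets, Klf15 had the lowest unadjusted p. It encodes a zinc-finger transcription factor that controls amino acid breakdown and glucose production in fasting. Klf15 read 8.45, 8.54 and 8.72 in the knockout (mean 8.57 ± 0.14, SD, n = 3) and 8.38, 8.33 and 8.34 in the wild type (8.35 ± 0.030, SD, n = 3). The groups did not overlap, and the knockout arrays spread more widely than the wild-type ones. The difference was 0.22 (SE 0.076), or 1.17-fold (limma, unadjusted p = 0.0183, adjusted p = 0.9995). Within replicates 1, 2 and 3 it was 0.066, 0.21 and 0.38, and it was 0.15 without the knockout replicate 3 array. With the mean signal of lens markers as a covariate the Klf15 difference was 0.091 (limma, unadjusted p = 0.357). The cluster's signal was moderate, at the 49.4th percentile.

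Irs2 encodes the insulin receptor substrate that FOXO proteins induce in fasted liver. It showed the largest difference of the 10, at 0.24 (SE 0.13; limma, unadjusted p = 0.101). Its knockout arrays read 9.64, 10.14 and 9.94 and its wild-type arrays 9.56, 9.87 and 9.58. The groups overlapped, because wild-type replicate 2 exceeded knockout replicate 1. Replicate 2 was highest in both genotypes, and the means of the numbers ranged over 0.41, more than the genotypes differed. Within each number the knockout array was the higher, by 0.085, 0.27 and 0.37. With the replicate block the SE was 0.064 (limma, unadjusted p = 0.00753, adjusted p = 0.514). Without knockout replicate 1 the Irs2 difference was 0.38, and without knockout replicate 2 it was 0.12.

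Irs1, the gene of the other main insulin receptor substrate, read 11.26, 11.50 and 11.55 in the knockout and 11.29, 11.34 and 11.32 in the wild type. The wild-type arrays lay between 11.29 and 11.34, and the knockout arrays stood on both sides of them. The difference was 0.12 (95% interval -0.060 to 0.30). A second and dim Irs1 cluster, at the 14.1st percentile of signal, differed by -0.0082 (SE 0.069).

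Pik3ip1 encodes a membrane protein that binds and inhibits PI3 kinase. Its signal was 9.20, 9.57 and 9.70 in the knockout and 9.24, 9.38 and 9.32 in the wild type. Knockout replicate 1 was the lowest of the 6 arrays and the other knockout arrays were the highest 2. The difference was 0.18 (95% interval -0.092 to 0.44), and it was 0.32 without knockout replicate 1 and 0.070 without knockout replicate 3.

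Cdkn1b encodes p27, an inhibitor of cyclin-dependent kinases that FOXO proteins induce and that marks cells leaving the cycle. It read 12.11, 12.16 and 12.37 in the knockout and 12.09, 12.07 and 12.18 in the wild type. The difference was 0.10 (SE 0.079; limma, unadjusted p = 0.235, or 0.0975 with the replicate block). Every number was higher in the knockout, by 0.022, 0.091 and 0.19. A higher signal in all 3 numbers was found for 4 of the 10 genes (Foxo4, Cdkn1b, Klf15 and Irs2) and for 16.5% of clusters tested. The second and dimmer Cdkn1b cluster, at the 58.5th percentile, differed by 0.21 (SE 0.15; limma, unadjusted p = 0.205, adjusted p = 0.9995). It was higher in the knockout at each number as well (limma with the replicate block, unadjusted p = 0.00332). It did not pass correction in that blocked fit, where 4.46% of clusters were higher at an unadjusted p under 0.05.

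Txnip encodes an arrestin-fold protein that limits glucose uptake and binds thioredoxin, and its transcription rises with intracellular glucose through the carbohydrate response element shown above. Txnip read 11.56, 11.91 and 11.04 in the knockout and 11.46, 11.63 and 11.27 in the wild type. The arrays followed the replicate number, with replicate 2 highest and replicate 3 lowest in both genotypes, and the means of the numbers ranged over 0.61. Against that spread the difference between genotypes was 0.047 (95% interval -0.39 to 0.48). Its direction differed between the numbers, at 0.097, 0.27 and -0.23, and it was -0.15 without knockout replicate 2. With the lens marker signal as a covariate it was 0.52 (limma, unadjusted p = 0.0112, adjusted p = 0.9989). Arrdc4, an arrestin gene driven by the same glucose-sensing factors, is named here after its values were seen. It read 8.85, 9.62 and 8.43 in the knockout and 8.84, 9.36 and 8.90 in the wild type, with replicate 2 highest in both genotypes as for Txnip.

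Sesn1 encodes a sestrin, a stress-induced protein that restrains mTORC1. Its knockout arrays read 10.85, 10.97 and 11.17 and its wild-type arrays 10.98, 10.94 and 11.04. The wild-type arrays lay between the lowest and the highest knockout array. The difference was 0.0049 (95% interval -0.19 to 0.20), the smallest of the 10, and was -0.082 without knockout replicate 3.

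**Figure D3:**
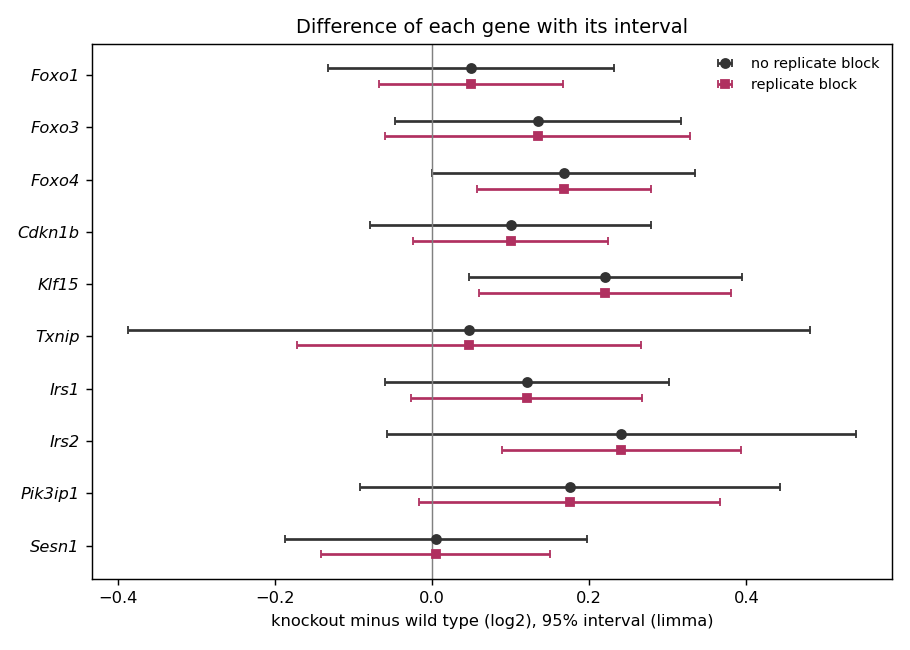
Knockout minus wild type (log2, horizontal axis) for each gene with its 95% interval from limma, without (circles) and with (squares) the replicate number as a block, n = 3 arrays per genotype. The intervals of Klf15 and Foxo4 lie above 0 in both fits and that of Irs2 in the blocked fit, before any correction over the 23410 clusters.

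Markers of tissue around the retina were read on the same arrays. The mean over 23 measured lens markers was 7.56, 7.49 and 7.70 in the knockout and 7.50, 7.41 and 7.43 in the wild type, with 20 of 23 above 0. The mean over 17 endothelial markers was 7.89, 7.69 and 7.96 in the knockout and 7.75, 7.64 and 7.65 in the wild type, with 16 of 17 above 0. Knockout replicate 3 was thus highest in both marker lists and was also the highest array for 7 of the 10 genes, while knockout replicate 1, the second highest in both lists, was the lowest knockout array for 9 of the 10. With the lens signal as a covariate, 7 of the 10 genes lay above 0 and the median was 0.089. Other marker lists had 8 of 10 (pericytes), 11 of 14 (microglia), 8 of 13 (pigment epithelium and melanocytes), 7 of 12 (periocular mesenchyme), 11 of 13 (Muller glia and astrocytes) and 3 of 4 (erythroid cells) above 0. Among retinal neurons these counts were 4 of 11 for ganglion cells, 7 of 9 for photoreceptors, 8 of 12 for amacrine and horizontal cells and 7 of 11 for progenitors. Over all clusters tested 50.7% lay above 0. Median differences were 0.10 for endothelial, 0.11 for microglia, 0.064 for pericyte and 0.047 for lens markers, beside 0.13 for the 10 genes. Those of the other marker lists lay between -0.036 (ganglion cells) and 0.059 (erythroid cells). At an unadjusted p under 0.05 in limma, 4 of 17 endothelial and 3 of 14 microglia markers were higher, where 1.69% of clusters were. In each other marker list at most 2 were. Within each replicate number the lens mean was higher in the knockout, so the lens covariate overlaps with genotype and cannot be told apart from it. The part of lens or of the other cells in the differences of the 10 genes was not tested. In whole tissue, fewer cells of a type and less RNA per cell cannot be told apart.

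Other known FOXO targets lay mostly above 0, by less. Of 30 measured, 24 lay above 0 and 6 below, with a median of 0.073. At an unadjusted p under 0.05, 1 was higher, where 1.69% of clusters were, and 0 were lower. With the replicate block 5 were higher, where 4.46% of clusters were, and 0 lower. Without knockout replicate 1 the count was 7 higher. In that fit 1298 of all 23410 clusters reached that level in either direction, against 803 with all arrays. The 1 gene without the block was Mxi1, a MAX-binding antagonist of MYC, at 10.38, 10.42 and 10.57 in the knockout and 10.30, 10.25 and 10.32 in the wild type (difference 0.16, SE 0.067; limma, unadjusted p = 0.0384, adjusted p = 0.9995). Other targets whose arrays did not overlap, named after their values were seen, were the repressor gene Bcl6 (0.25, SE 0.12), the autophagy kinase gene Ulk1 (0.12, SE 0.062) and the transcriptional coregulator gene Cited2 (0.11, SE 0.066). Non-overlap upwards thus held for 4 of the 30, where 4.08% of clusters showed it. Without knockout replicate 3 the list's median was 0.048 with 23 above 0, and with the lens covariate it was 0.031 with 19 above 0. Within replicates 1, 2 and 3 its medians were 0.042, 0.050 and 0.12.

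The signalling chain upstream of FOXO lay close to 0. Of 30 measured genes from the insulin receptor to AKT and mTOR, 18 lay above 0 and 12 below, with a median of 0.0090, and 0 had an unadjusted p under 0.05 in limma, or 0 higher and 1 lower with the replicate block, where 4.46% and 4.36% of clusters were. Without knockout replicate 3 and with the lens covariate 12 of the 30 lay above 0 (medians -0.0076 and -0.024), and without both replicate 2 arrays 22 did. The lowest p belonged to Grb14, an adaptor that inhibits the insulin receptor, at -0.15 (SE 0.084; limma, unadjusted p = 0.107), and the next to Mtor, the kinase of mTORC1 and mTORC2, at -0.098 (SE 0.061; limma, unadjusted p = 0.143). Every knockout array of Mtor lay below every wild-type array, as in 4.35% of clusters, and Akt1, an AKT kinase gene named after its values were seen, had every knockout array above every wild-type array (difference 0.052, SE 0.056), as in 4.08%. Regulators of FOXO proteins, such as 14-3-3, sirtuin and ubiquitin ligase genes, had 13 of 23 above 0 and a median of 0.0060, with 0 at an unadjusted p under 0.05, or 1 higher with the replicate block, where 4.46% of clusters were. Among them the ubiquitin ligase gene Mdm2 differed by 0.13 (SE 0.075; limma, unadjusted p = 0.108) and the arginine methyltransferase gene Prmt1 by -0.087 (SE 0.066; limma, unadjusted p = 0.218).

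Relatives of the 10 genes split evenly. Of 14 measured, 7 lay above 0 and 7 below, with a median of 0.0097, and 0 had an unadjusted p under 0.05, or 2 higher with the replicate block, where 4.46% of clusters were. Irs3, a further insulin receptor substrate, read 7.95, 7.72 and 7.78 in the knockout and 7.70, 7.48 and 7.71 in the wild type, without overlap (difference 0.19, SE 0.086; limma, unadjusted p = 0.0566). Non-overlap upwards held for 1 of the 14, where 4.08% of clusters showed it, and downwards for 1, where 4.35% did. Cdkn1c, which encodes p57, a relative of p27, differed by 0.12 (SE 0.065; limma, unadjusted p = 0.0989). Outside the rule for naming, the fourth FOXO gene, Foxo6, differed by -0.040 (SE 0.065), and the sestrin genes Sesn2 and Sesn3 by -0.082 (SE 0.086) and 0.10 (SE 0.092).

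Genes that insulin is known to raise had 7 of 13 above 0, with a median of 0.013. In limma 0 of them had an unadjusted p under 0.05, or 2 higher and 1 lower with the replicate block, where 4.46% and 4.36% of clusters were. Egr1, an immediate early transcription factor gene, differed by 0.24 (SE 0.13; limma, unadjusted p = 0.0959), and Acaca, the gene of acetyl-CoA carboxylase, by -0.12 (SE 0.068; limma, unadjusted p = 0.125). Glucocorticoid-responsive genes, a list that shares Klf15 and Txnip with the genes described, had 15 of 18 above 0 and a median of 0.17. In this list 3 were higher at an unadjusted p under 0.05 (Klf15, Hif3a and, named after its values were seen, the metallothionein gene Mt1), where 1.69% of clusters were, and 9 in the blocked fit, where 4.46% were. The count was 9 without knockout replicate 1, 1 without knockout replicate 3 and 5 without wild-type replicate 2. It was 2 without wild-type replicate 3 or with the lens covariate, which left 12 of 18 above 0 and a median of 0.10. Over all 23410 clusters the counts in these fits, in either direction, were 1298, 755, 636, 679 and 888, against 803 in the main fit. The medians of this list within replicates 1, 2 and 3 were 0.033, 0.18 and 0.25, beside 0.00076, 0.14 and 0.21 for the 10 genes. The part of any hormone in these values was not tested.

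**Figure D4:**
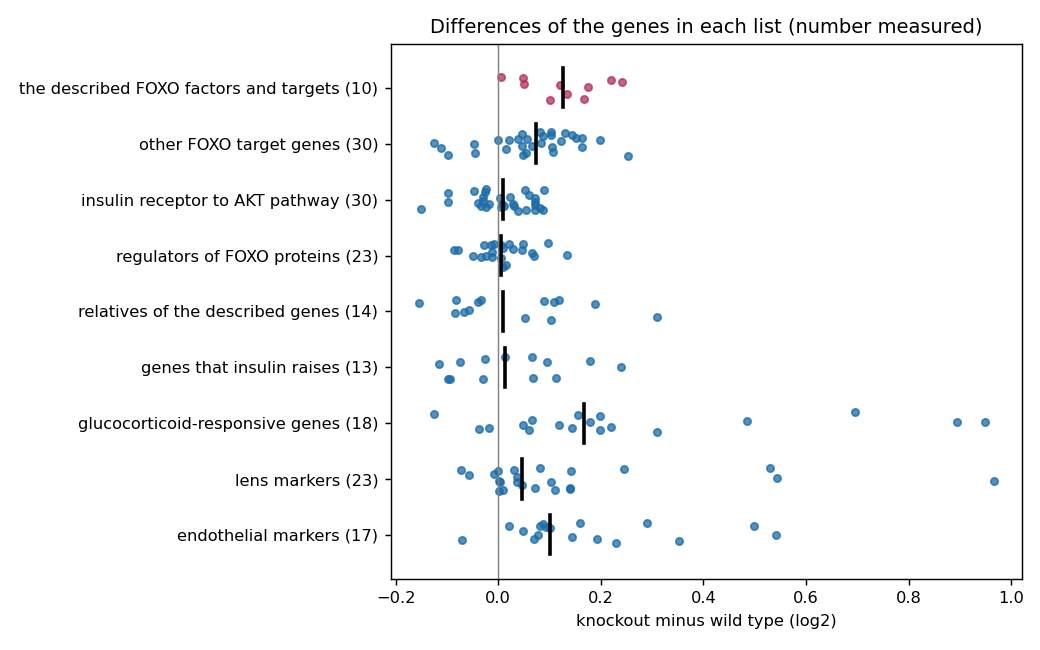
Knockout minus wild type (log2, horizontal axis) for every measured gene of each list (vertical axis, number of genes in parentheses), with a black line at the list's median. The medians are 0.13 for the 10 genes described, 0.073 for other FOXO targets, 0.0090 for the insulin receptor to AKT pathway and 0.17 for glucocorticoid-responsive genes.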

How the data were processed

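RNA from 3 knockout and 3 wild-type retina samples was hybridised to Affymetrix Mouse Gene 1.0 ST arrays. The authors deposited 1 log2 signal per transcript cluster and array, made with Affymetrix Expression Console and RMA per the submitters' processing notes, which also name Transcriptome Analysis Console. RMA gives every array the same distribution of probe values, so a change common to most RNAs is lost. Tool versions and a genome build are not named in the labels. Array medians were 7.84 to 7.91, and precision is limited by the number of arrays.

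Per the platform annotation, 21789 of 35557 clusters had 1 gene, 1621 had several and 12147 had none named here. By Entrez identifier, 21698 single-gene clusters matched the GRCm38.p6 gene table, and 0 symbols changed. The 23410 clusters with a gene entered limma 3.58.1 (lmFit, eBayes) in R 4.3.3, with no filter on signal and Benjamini-Hochberg adjustment over all of them at a threshold of 0.05. The fit was run on simulated data in which noise was independent between arrays. The deviations that arrays of the same replicate number share were not simulated. With 3 arrays per group, an exact permutation test has p = 0.1 as its smallest value and was not used. Replicate numbers come from the sample titles, which do not explain them.

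The 10 genes and all gene lists were chosen with earlier results of these data known. Named besides the 10 were Ptpn9 and, per pathway list, up to 4 genes with an unadjusted p under 0.05 and arrays that did not overlap, or otherwise the lowest 2 by p. Foxo6, Sesn2, Sesn3, Arrdc4, Akt1, Mt1, Bcl6, Ulk1 and Cited2 fall outside this rule and were named after their values were seen. Lists were described by counts and medians, with no test of a list. As alternatives, normalization was changed (median centring, cyclic loess), as were the variance model (trend, robust, array weights), the rows used (filters on signal at the 25th percentile and at the median, all rows) and the design (replicate block, lens covariate). The mean over a gene's clusters replaced the brightest, and each array was left out. Leaving out both replicate 2 arrays, and all alternatives for lists, were added after seeing the data. Tables and figures were made with pandas 2.3.3 and matplotlib 3.10.9 in Python 3.11.15.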

Additional observations from a re-analysis of the deposited data

How the results depend on the processing

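Of 179 refits of the 10 single-gene differences, 167 kept their direction, 12 reversed, and 0 reached an adjusted p of 0.05 (limma; lowest 0.514, with the replicate block). The variance trend, robust variance, signal filters, all rows and the replicate block leave each difference itself unchanged, so no direction could reverse there. The same holds for the mean over clusters in genes without a second cluster. The 167 include these refits and so overstate how stable the directions were. Txnip and Sesn1 reversed most often. Txnip was -0.025 with array weights, -0.15 without knockout replicate 2, -0.045 without wild-type replicate 3 and -0.065 without both replicate 2 arrays. Sesn1 was -5.2e-05 with median centring, -0.13 with the lens covariate, -0.082 without knockout replicate 3, -0.020 without wild-type replicate 2 and -0.0069 without both replicate 2 arrays. Foxo1 was -0.014 without knockout replicate 2, and with the lens covariate Foxo3 was -0.0017 and Cdkn1b -0.026. With each array left out, Foxo1 ranged from -0.014 to 0.12, Txnip from -0.15 to 0.28 and Sesn1 from -0.082 to 0.078. Klf15 could not be fitted with the filter at the median, which its signal does not pass. The number of the 10 genes above 0 lay between 7 and 10, and their median difference between 0.068 and 0.19, over the 18 alternatives.

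The count of the 10 at an unadjusted p under 0.05, which is 2, was 1 with median centring, the variance trend, robust variance, the filter at the median, every row of the table and the lens covariate (there Txnip, at 0.52, and neither Klf15 nor Foxo4), 3 with the replicate block and 0 without both replicate 2 arrays. With each array left out it ranged from 0 to 5, at 0 without knockout replicate 3 and 5 without knockout replicate 1. Over all clusters, 803 at that level became 431 with the filter at the median, 1331 with every row and 2063 with the replicate block, and 636 to 1298 with each array left out. The replicate block, which pairs arrays of the same number, gave 1 cluster past correction instead of 0, and it was none of the 10 genes. The count of other FOXO targets above 0 was 15 of 19 measured with the filter at the median, which leaves fewer genes, and otherwise lay between 19 and 25 of 30, or 22 of 28 with the filter at the 25th percentile. The cause of the other changes was not tested.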
